A study of Mus musculus with 12 samples.

Results

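The mitosis and spindle genes are a named list of 46 genes whose products take a cell into mitosis, attach chromosomes to the spindle, release them at anaphase and divide the cell. Members were found by matching the listed mouse symbols to the gene identifiers of the deposited count table. All 46 were matched among 56941 genes, and all 46 passed the filter on low counts that left 16794 genes to test. The libraries came from CH12F3-2A, a mouse B cell lymphoma line that switches from IgM to IgA when stimulated. Its cells were transfected with pX459, a plasmid that carries Cas9, puromycin resistance and a guide RNA, and then spent 72 h under puromycin. The guide was directed at Nop16, which encodes a nucleolar protein (sgNop16), or was a non-targeting control (sgCtr). Cells of each guide were harvested after 24 h with the CIT cocktail or without it. CIT combined a reagent that the labels spell anti-CD40L, and the design text spells CD40L, at 1 µg/ml with mouse IL-4 at 20 ng/ml and human TGF-β at 1 ng/ml. The 4 groups were sgNop16 with CIT, sgCtr with CIT, sgNop16 without CIT and sgCtr without CIT, each with 3 biological replicates by the design text. By that text the study asked what part NOP16 plays in class switching to IgA.

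Every group carried Cas9 plasmid and had been through puromycin. The labels describe transfected and selected cells and mention no single-cell clone, so edited and unedited alleles may be mixed in each library. Nop16 mRNA checked the labels. It stood at 64.6, 66.3 and 66.2 CPM (counts scaled to the same library total) in sgNop16 cells with CIT, against 78.8, 73.1 and 79.3 CPM in sgCtr cells with CIT. Without CIT it stood at 85.9, 82.4 and 88.6 CPM in sgNop16 cells, against 103.6, 107.9 and 107.3 CPM in sgCtr cells. In sgNop16 cells the transcript was lower by 0.23 ± 0.04 on the log2 scale with CIT (adjusted p = 0.00204) and by 0.31 ± 0.04 without it (adjusted p = 0.000109). The ± value on a log2 difference is its standard error throughout, and adjusted p is from edgeR's quasi-likelihood test over all 16794 genes. The mRNA level measures neither the share of edited alleles nor the protein.

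Total counts ran from 38866418 to 48615177 per library, and the TMM scaling factors from 0.985 to 1.013. All 7 B cell markers examined were present in every library, among them Pax5 (228 to 253 CPM). Several moved. Cd22, an inhibitory co-receptor of B cells, stood at 3.32, 3.31 and 3.61 CPM in sgNop16 cells with CIT, against 114.8, 117.2 and 112.7 CPM without it, and at 7.50, 3.54 and 3.67 CPM in sgCtr cells with CIT, against 113.7, 111.1 and 106.4 CPM without it, far below its level without CIT in all 6 CIT libraries. With the Nop16 guide 3 of the 7 were called lower with CIT (Cd79b, Ighm and Ebf1) and 3 without it (Cd79b, Ighm and Igha), by at most 0.26 in log2. The summed level of the 7 B cell markers was 3940 to 4040 CPM in sgNop16 cells with CIT, 4200 to 4350 CPM in sgCtr cells with CIT, 4080 to 4110 CPM in sgNop16 cells without CIT and 4500 to 4560 CPM in sgCtr cells without CIT. Lists of 5 markers each for T cells, macrophages and fibroblasts summed to at most 1.44, 9.8 and 5.2 CPM, with Lyz2, Cd14, Col1a2 and Dcn at 0 in every group, and 4 erythroid markers summed to at most 3.62 CPM. The macrophage sum was higher with CIT, at 7.07 to 9.8 CPM in sgNop16 cells and 4.34 to 5.92 CPM in sgCtr cells, against 1.5 to 2.12 CPM in sgNop16 cells and 1.2 to 2.1 CPM in sgCtr cells without CIT. Csf1r, one of the macrophage markers, shares exon positions with the more abundant Hmgxb3 on the other strand. The part of these markers in the results on mitosis genes was not tested.

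Mitosis is run by kinases and timed destruction. Cdk1 bound to cyclin B starts it once Cdc25 phosphatases remove inhibitory phosphates, and Plk1 and the Aurora kinases carry it forward. Kinetochores built on the centromere capture spindle microtubules, and the spindle checkpoint holds back the anaphase promoting complex (APC/C) until all chromosomes are attached. Cdc20 then activates APC/C, which marks cyclin B and securin for destruction. Most of these genes are transcribed mainly in G2 and mitosis. MuvB complexes keep them silent in resting cells and, with B-MYB and FOXM1, switch them on in cycling ones, through a promoter element called the CHR, often beside CCAAT boxes bound by NF-Y. B cells that receive CD40 and cytokine signals are known to divide, and class switching is tied to proliferation. In bulk RNA, fewer cells in mitosis and less mitotic RNA per cell cannot be told apart.

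The CHR and CCAAT letters were searched because members are known targets of factors that bind these elements. Their frequency here is thus background and not a result of these data, and not every member held them. RefSeq promoter windows (mouse build GRCm38.p6, 250 bases before to 50 after the annotated start) were found for 37 of the 46 members. The letters searched on both strands were CCAAT for the box and, for the CHR, the canonical spelling TTTGAA and its known variants, spelled TTCGAA or, less often, as TTTAAA. A CHR match stood in 32 of the 37 genes (86.5%), against 31.9% of all 27025 genes with a window. CCAAT stood in 28 of the 37 (75.7%), against 41.1% of all genes. Both letters in the same window were found for 28 of the 37 (75.7%), against 12.8% of all genes. Of the CHR spellings, TTTGAA was held by 73.0% of the members with a window and 20.2% of all genes, the TTCGAA variant by 10.8% of the members and 1.8% of all genes, and the TTTAAA variant by 24.3% of the members and 14.9% of all genes. A match is a run of letters and shows no binding.

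The 6 stretches of 150 bases (120 before the start and 30 after it) are given 5′ to 3′ on the gene's strand, for members with both motifs. Bub3, called in 3 comparisons, comes first, and the other 5 are the first by name of the members called in 2, where further members with both motifs tie with them. Capitals mark the CHR and CCAAT letters, and a match on the opposite strand appears as its reverse complement, TTCAAA for the canonical CHR and ATTGG for the box.
Bub3: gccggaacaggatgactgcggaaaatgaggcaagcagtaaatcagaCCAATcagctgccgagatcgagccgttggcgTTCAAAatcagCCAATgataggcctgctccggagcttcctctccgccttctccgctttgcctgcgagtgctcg
Bub1: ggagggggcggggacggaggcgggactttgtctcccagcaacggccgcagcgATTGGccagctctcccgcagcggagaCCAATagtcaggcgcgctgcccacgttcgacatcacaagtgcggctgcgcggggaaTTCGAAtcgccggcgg
Cdc20: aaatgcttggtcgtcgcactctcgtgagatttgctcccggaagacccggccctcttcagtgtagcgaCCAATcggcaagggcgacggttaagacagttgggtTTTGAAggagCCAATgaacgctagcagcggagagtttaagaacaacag
Cdc25b: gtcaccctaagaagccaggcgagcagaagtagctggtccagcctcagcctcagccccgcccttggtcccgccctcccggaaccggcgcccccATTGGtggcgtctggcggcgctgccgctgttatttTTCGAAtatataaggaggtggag
Cdca8: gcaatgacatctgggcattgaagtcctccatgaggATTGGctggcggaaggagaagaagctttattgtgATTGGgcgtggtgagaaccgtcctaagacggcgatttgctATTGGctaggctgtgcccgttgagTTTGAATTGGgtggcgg
Cdk1: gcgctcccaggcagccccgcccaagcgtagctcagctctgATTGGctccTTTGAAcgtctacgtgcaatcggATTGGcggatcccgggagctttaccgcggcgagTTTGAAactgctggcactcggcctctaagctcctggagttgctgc
They lie at chr7:131560250-131560399 on the plus strand for Bub3, chr2:127831830-127831979 on the minus strand for Bub1, chr4:118437314-118437463 on the minus strand for Cdc20, chr2:131186828-131186977 on the plus strand for Cdc25b, chr4:124936888-124937037 on the minus strand for Cdca8 and chr10:69352883-69353032 on the minus strand for Cdk1 (GRCm38.p6). Bub1 and Cdc25b carry the TTCGAA spelling, just past the annotated start. In Bub3, Cdc20 and Cdk1 the CHR lies upstream of the start, at −43 to −38 in Bub3, −18 to −13 in Cdc20, and −71 to −66 and −15 to −10 in Cdk1. Cdca8 has its CHR at 14 to 19 past the start, where it shares a base with a CCAAT match. These members were picked for holding both motifs and for their calls, and promoter activity was not measured. In the control cells the transcripts of Bub3, Cdc20, Cdc25b, Cdca8 and Cdk1 were lower with CIT and that of Bub1 was higher. In sgNop16 cells the directions were the same, except that Bub3 was not called. The part of the letters in these differences was not tested.

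**Figure D1:**
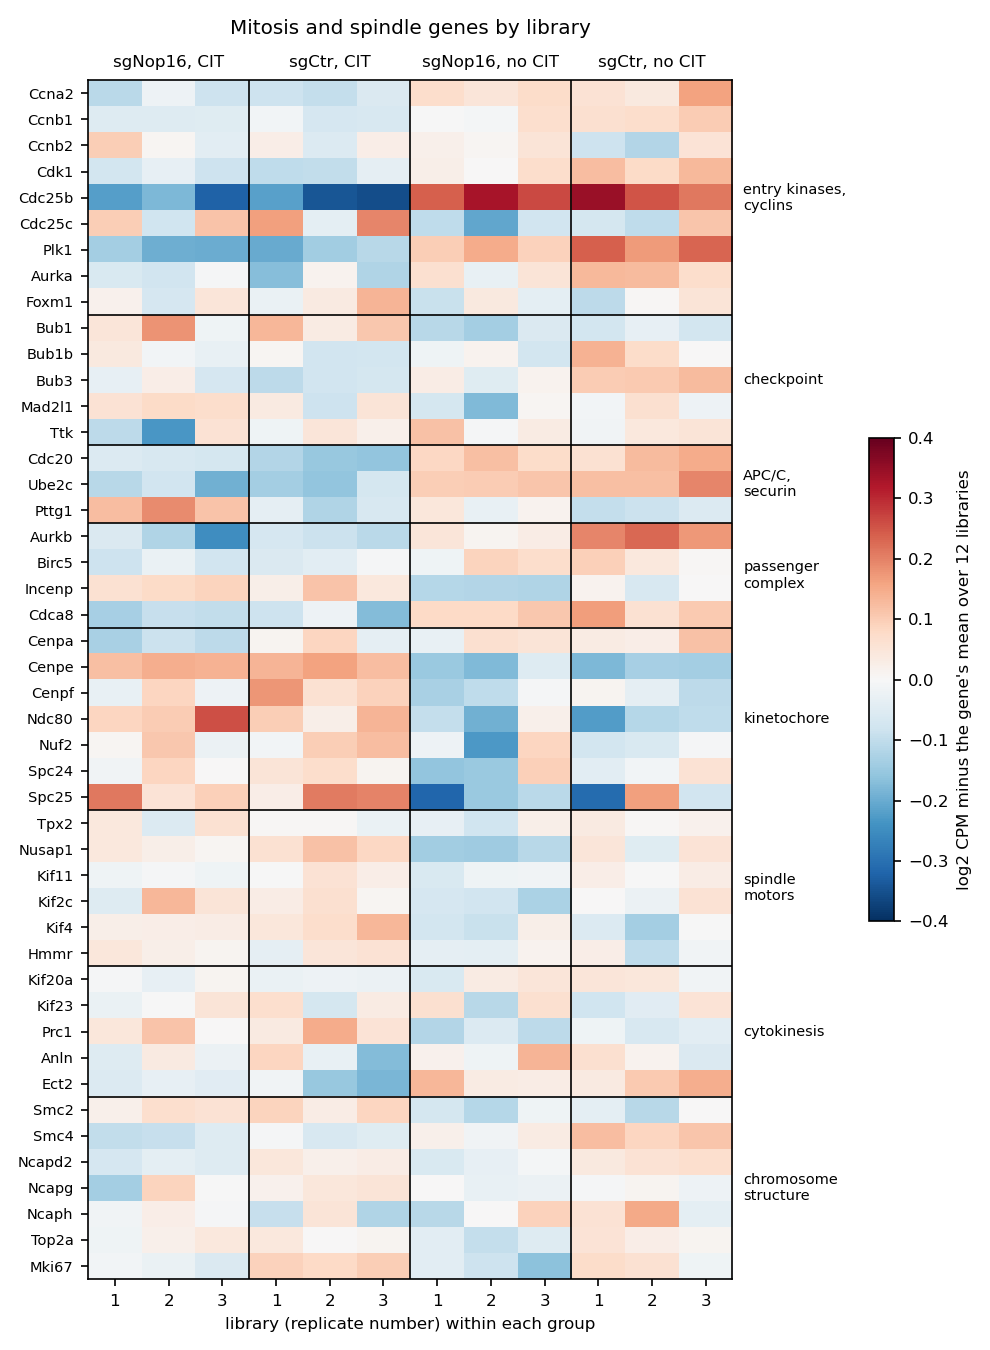
Level of each of the 46 mitosis and spindle genes in each of the 12 libraries, as log2 CPM minus that gene's mean over the 12 libraries, with genes grouped by role down the page. The Cdc25b and Plk1 rows are blue in all 6 CIT libraries and red in all 6 libraries without CIT, while the Cenpe row runs the other way.

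With CIT some mitosis genes rose and others fell, so the list did not move as a block. In sgNop16 cells 22 of the 46 were called at adjusted p under 0.05, 11 higher and 11 lower with CIT, which is 47.8% of the members against 37.8% of all genes tested, 19.3% higher and 18.5% lower. In sgCtr cells 22 were again called, 8 higher and 14 lower, or 47.8% against 41.7% of all genes tested, 20.6% higher and 21.1% lower. The shares called are near those of all genes, which depend on the low-count filter. With a filter of 5 CPM in 3 libraries, 23 of the 46 members and 5789 of 10571 genes were called in sgNop16 cells. In sgCtr cells 25 of the 46 and 6354 of 10571 were called. The members' share was then below that of all genes in both. Role groups and other lists were compared under the main filter only. A higher share there is not shown to exceed that of genes at similar levels. The median log2 difference of the 46 was 0.01 in sgNop16 cells and −0.01 in sgCtr cells, beside 0.01 in sgNop16 cells and 0.02 in sgCtr cells over all genes tested. No member changed by 1.5-fold in either response. Averaged over the 46, the centred log2 level lay between −0.016 and 0 in sgNop16 libraries with CIT, −0.006 and −0.002 in sgCtr libraries with CIT, −0.036 and 0.015 in sgNop16 libraries without CIT, and 0.023 and 0.041 in sgCtr libraries without CIT.

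**Figure D2:**
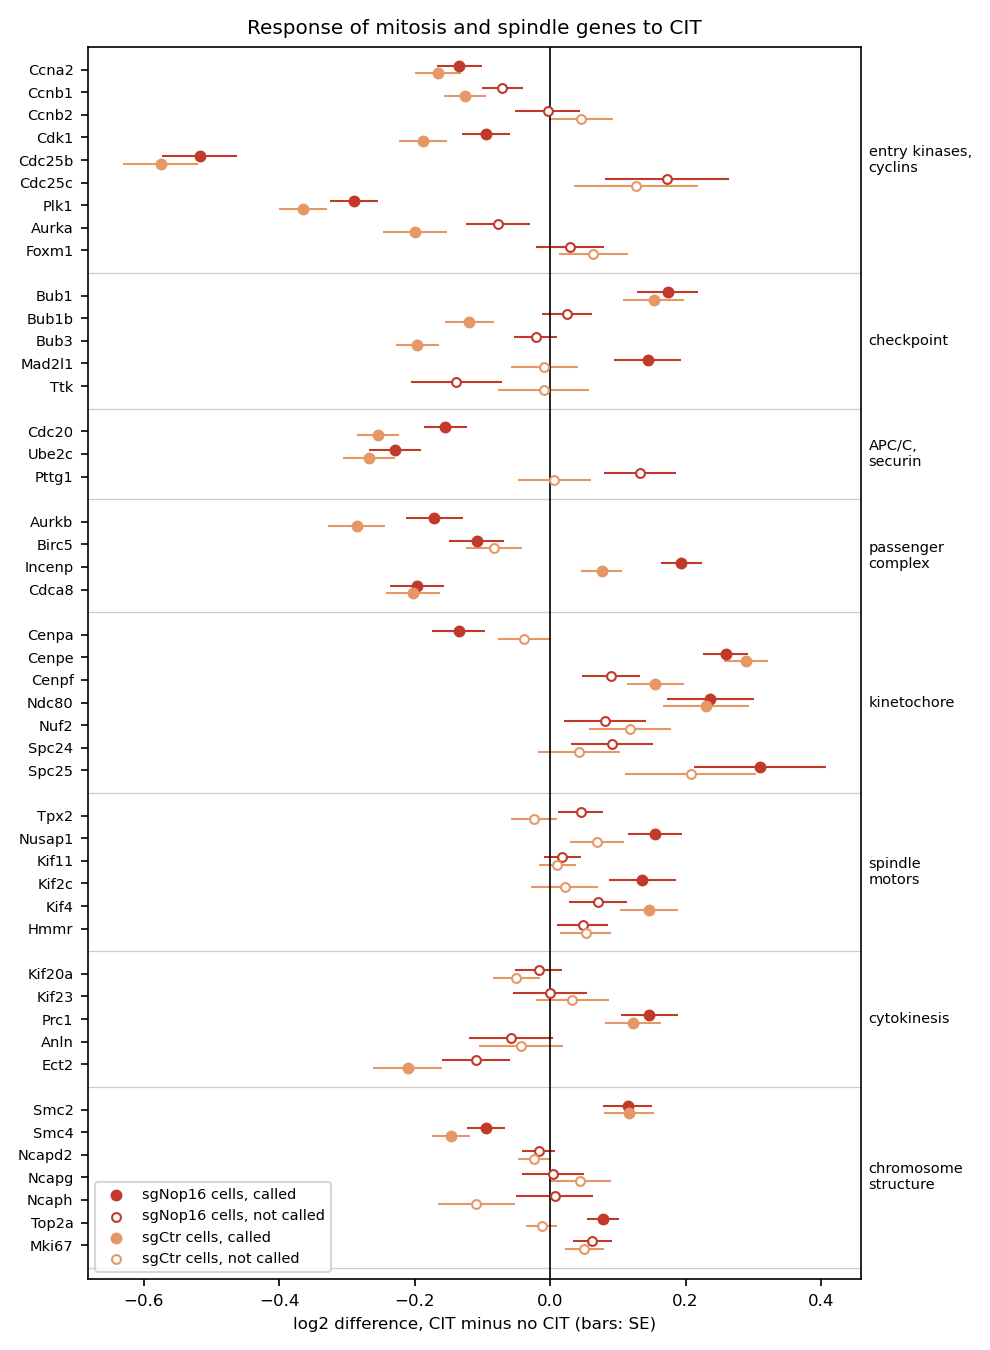
Log2 difference of each member between cells with and without CIT, with its standard error, in sgNop16 cells (red) and sgCtr cells (orange). Filled points passed adjusted p under 0.05, and the calls of the entry kinases and cyclins all lie left of 0, from −0.58 for Cdc25b in sgCtr cells to −0.09 for Cdk1 in sgNop16 cells.

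Among the genes that drive entry into mitosis, every call was lower with CIT. Of the 9 entry kinases, cyclins and their activators, 4 were called lower and 0 higher in sgNop16 cells (44.4%, against 37.8% of all genes in either direction), and 6 lower and 0 higher in sgCtr cells (66.7%, against 41.7%). Cdc25b, the phosphatase that begins to activate cyclin-bound Cdk1, stood at 51.3, 52.7 and 47.7 CPM in sgNop16 cells with CIT, against 70.5, 75.0 and 71.6 CPM without it. In sgCtr cells it stood at 51.3, 47.0 and 46.6 CPM with CIT, against 75.7, 71.1 and 69.1 CPM without it. All 6 CIT libraries lay below all 6 others. The log2 difference was −0.52 ± 0.06 in sgNop16 cells (adjusted p = 6.02e-08) and −0.58 ± 0.06 in sgCtr cells (adjusted p = 9.1e-09), the largest among the members in both. Plk1, the Polo kinase needed for spindle assembly and mitotic exit, had 143, 137 and 137 CPM with CIT and 168, 174 and 167 CPM without it in sgNop16 cells. In sgCtr cells Plk1 had 137, 143 and 145 CPM with CIT and 185, 177 and 185 CPM without it. Its log2 difference was −0.29 ± 0.04 in sgNop16 cells (adjusted p = 4.95e-07) and −0.36 ± 0.04 in sgCtr cells (adjusted p = 1.09e-08), and again no library with CIT reached one without.

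Cdk1 itself moved less. It stood at 123, 126 and 122 CPM in sgNop16 cells with CIT, against 132, 129 and 136 CPM without it, and at 121, 121 and 126 CPM in sgCtr cells with CIT, against 141, 136 and 142 CPM without it. In sgNop16 cells the log2 difference was −0.09 ± 0.04 (adjusted p = 0.0409), a call lost in 7 of 15 alternatives. These were library totals in place of TMM, no low-count filter, a 5 CPM filter, only the groups compared, and leaving out CIT library 1 or 3 or library 3 without CIT, with adjusted p of up to 0.107. In sgCtr cells it was −0.19 ± 0.04 (adjusted p = 0.000136). The cyclins did not move alike. Ccna2, cyclin A, fell in both sgNop16 cells (−0.13 ± 0.03, adjusted p = 0.00251) and sgCtr cells (−0.17 ± 0.03, adjusted p = 0.000283). Ccnb1, cyclin B, had 200.4, 200.6 and 200.8 CPM in sgNop16 cells with CIT and 208, 207 and 218 CPM without it. In sgCtr cells Ccnb1 had 206, 199 and 199 CPM with CIT and 217, 218 and 223 CPM without it. In sgNop16 cells its difference of −0.07 had adjusted p = 0.0785, passing when library 1 or 2 without CIT was left out, and in sgCtr cells it fell (−0.13 ± 0.03, adjusted p = 0.00181). Aurka, the spindle pole Aurora kinase, had a difference of −0.08 in sgNop16 cells (adjusted p = 0.23) and fell in sgCtr cells (−0.20 ± 0.05, adjusted p = 0.00132). Ccnb2, Cdc25c and Foxm1, the forkhead activator of late cell cycle genes, passed in neither response, with differences between −0.0034 for Ccnb2 in sgNop16 cells and 0.17 for Cdc25c in the same cells.

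On the APC/C side of mitotic exit, an activator and an enzyme fell and securin did not pass. Cdc20, the APC/C activator that the checkpoint holds in check, stood at 188, 187 and 185 CPM in sgNop16 cells with CIT, against 206, 212 and 205 CPM without it. In sgCtr cells Cdc20 stood at 179.6, 175.5 and 174.7 CPM with CIT, against 203, 213 and 216 CPM without it. Its log2 difference was −0.15 ± 0.03 in sgNop16 cells (adjusted p = 0.000335) and −0.25 ± 0.03 in sgCtr cells (adjusted p = 4.58e-07), with no overlap between libraries in either. Ube2c, the ubiquitin-conjugating enzyme that starts chains for APC/C, fell by 0.23 ± 0.04 in sgNop16 cells (adjusted p = 3.62e-05) and by 0.27 ± 0.04 in sgCtr cells (adjusted p = 4.04e-06). Pttg1, the securin that APC/C destroys, did not pass in either response, with a difference of 0.13 in sgNop16 cells (adjusted p = 0.055) and 0.01 in sgCtr cells (adjusted p = 0.947).

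In the chromosomal passenger complex, which corrects wrong attachments, the scaffold went against the rest. Aurkb, its kinase, stood at 104.7, 100.2 and 91.7 CPM in sgNop16 cells with CIT, against 112.7, 109.8 and 111.2 CPM without it. In sgCtr cells Aurkb stood at 104.1, 102.6 and 101.2 CPM with CIT, against 124.6, 127.7 and 122.9 CPM without it. It fell by 0.17 ± 0.04 in sgNop16 cells (adjusted p = 0.00243) and by 0.29 ± 0.04 in sgCtr cells (adjusted p = 6.51e-06). Cdca8, borealin, which helps to bring the complex to centromeres, fell by 0.20 ± 0.04 in both sgNop16 cells (adjusted p = 0.000317) and sgCtr cells (adjusted p = 0.000191). Birc5, survivin, was called lower in sgNop16 cells (−0.11 ± 0.04, adjusted p = 0.0417), a call lost in 8 of 15 alternatives with adjusted p of up to 0.0994. They were 4 of the 6 leave-one-library-out fits (CIT libraries 1 and 3, libraries 2 and 3 without CIT) and the same 4 settings of scaling, filter and samples as for Cdk1. In sgCtr cells Birc5 differed by −0.08 (adjusted p = 0.116). Incenp, the scaffold that binds and activates Aurora B, rose. It stood at 277, 280.3 and 283 CPM in sgNop16 cells with CIT, against 245, 245 and 245 CPM without it, a log2 difference of 0.19 ± 0.03 (adjusted p = 1.58e-05). In sgCtr cells Incenp stood at 270.1, 288 and 274 CPM with CIT, against 268, 254 and 266 CPM without it, and its call (0.08 ± 0.03, adjusted p = 0.0479) was lost in 8 of 15 alternatives, among them those without library 2 or 3 of either sgCtr group, with adjusted p of up to 0.309.

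Of the 7 kinetochore and centromere members, 3 were called higher and 1 lower in sgNop16 cells (57.1%, against 37.8% of all genes), and 3 higher and 0 lower in sgCtr cells (42.9%, against 41.7%). These counts describe a small group and were not tested. Cenpe, the kinesin that carries chromosomes to the spindle equator, stood at 239, 243 and 242 CPM in sgNop16 cells with CIT, against 198, 194 and 212 CPM without it. In sgCtr cells Cenpe stood at 241, 246 and 239 CPM with CIT, against 194, 200.3 and 199.8 CPM without it. All 6 CIT libraries lay above all 6 others. Its log2 difference was 0.26 ± 0.03 in sgNop16 cells (adjusted p = 8.23e-07) and 0.29 ± 0.03 in sgCtr cells (adjusted p = 1.3e-07). Ndc80, the microtubule-binding subunit of the outer kinetochore, had 51.3, 51.8 and 57.8 CPM with CIT and 45.2, 42.3 and 49.0 CPM without it in sgNop16 cells, and 51.7, 49.0 and 53.1 CPM with CIT and 41.4, 44.6 and 45.0 CPM without it in sgCtr cells. Ndc80 rose by 0.24 ± 0.06 in sgNop16 cells (adjusted p = 0.00466) and by 0.23 ± 0.06 in sgCtr cells (adjusted p = 0.00511). The sgNop16 call was lost without CIT library 3 or library 2 without CIT, with adjusted p of up to 0.0583.

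The partners of Ndc80 in its complex gave fewer calls. Spc25 had 32.1, 28.8 and 29.6 CPM in sgNop16 cells with CIT, against 22.3, 25.0 and 25.8 CPM without it, and 28.3, 32.1 and 31.8 CPM in sgCtr cells with CIT, against 22.4, 31.1 and 26.3 CPM without it. It rose in sgNop16 cells (0.31 ± 0.10, adjusted p = 0.0139), a call lost without CIT library 1 or library 1 without CIT at adjusted p of up to 0.101. In sgCtr cells, where the libraries overlapped, the difference was 0.21 (adjusted p = 0.0936). Nuf2 and Spc24 passed in neither, with differences of 0.04 to 0.12. Cenpf, a large outer kinetochore protein, had a difference of 0.09 in sgNop16 cells (adjusted p = 0.107) and rose in sgCtr cells (0.16 ± 0.04, adjusted p = 0.0048). Cenpa, the histone H3 variant that marks centromeres, fell in sgNop16 cells (−0.14 ± 0.04, adjusted p = 0.00884), and its difference in sgCtr cells was −0.04 (adjusted p = 0.502).

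The spindle checkpoint genes split. Bub1, the kinase that recruits other checkpoint proteins to kinetochores, rose in both responses. It stood at 123, 135 and 118 CPM in sgNop16 cells with CIT, against 111, 109 and 115 CPM without it (0.17 ± 0.04, adjusted p = 0.00343). In sgCtr cells Bub1 stood at 131, 122 and 129 CPM with CIT, against 114, 117 and 113 CPM without it (0.15 ± 0.04, adjusted p = 0.00796). Bub3, the adaptor that brings Bub1 and BubR1 to kinetochores, stood at 205.6, 214.1 and 200.7 CPM in sgNop16 cells with CIT, against 214.4, 203.1 and 212.1 CPM without it, overlapping groups with a difference of −0.02 (adjusted p = 0.672). In sgCtr cells Bub3 fell, at 195.3, 199.1 and 200.1 CPM with CIT, against 225.5, 226.1 and 229.5 CPM without it (−0.20 ± 0.03, adjusted p = 2.2e-05). Bub1b, which encodes BubR1, was called lower in sgCtr cells (−0.12 ± 0.04, adjusted p = 0.0108) although its libraries overlapped, and the call was lost with library totals and when sgCtr library 1 without CIT was left out (adjusted p of up to 0.0921). Mad2l1, which binds and restrains Cdc20, was called higher in sgNop16 cells (0.14 ± 0.05, adjusted p = 0.0236), a call lost in 5 of the 6 leave-one-library-out fits, all but library 3 without CIT, with adjusted p of up to 0.241. Ttk, the kinase that starts checkpoint signalling, passed in neither response.

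Of the 6 spindle motors and microtubule binders, 2 were called higher and 0 lower in sgNop16 cells (33.3%, against 37.8% of all genes). In sgCtr cells 1 was called higher and 0 lower (16.7%, against 41.7%). Kif4, a chromosome-bound kinesin, rose in sgCtr cells (0.15 ± 0.04, adjusted p = 0.00794), a call lost without CIT library 3 or library 2 without CIT at adjusted p of up to 0.0688. Nusap1, which bundles spindle microtubules, stood at 98.6, 97.2 and 96.3 CPM in sgNop16 cells with CIT, against 86.9, 86.8 and 88.6 CPM without it (0.16 ± 0.04, adjusted p = 0.00301). In sgCtr cells Nusap1 stood at 99.9, 103.8 and 101.4 CPM with CIT, against 99.1, 92.4 and 99.3 CPM without it (0.07, adjusted p = 0.175). Kif2c, a microtubule depolymerase, was called higher in sgNop16 cells (0.14 ± 0.05, adjusted p = 0.0335), and the call held in only 1 of the 6 leave-one-library-out fits, the fit without CIT library 1, with adjusted p of up to 0.206 in the others. Kif11, the motor that separates spindle poles, Tpx2, the activator of Aurora A, and Hmmr, a spindle assembly factor, passed in neither, with differences from −0.02 to 0.05.

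Of the 5 cytokinesis genes, Prc1, which bundles the central spindle, rose in both sgNop16 cells (0.15 ± 0.04, adjusted p = 0.00703) and sgCtr cells (0.12 ± 0.04, adjusted p = 0.0207). With a library left out the Prc1 difference was 0.12 to 0.17 in sgNop16 cells and 0.09 to 0.14 in sgCtr cells. The sgNop16 call was lost without CIT library 2 or library 1 without CIT (adjusted p of up to 0.0548), and the sgCtr call without CIT library 2 or library 2 or 3 without CIT (up to 0.152). Ect2, the exchange factor that activates RhoA at the division plane, stood at 70.5, 71.5 and 70.9 CPM in sgNop16 cells with CIT, against 80.2, 74.9 and 74.7 CPM without it, and at 72.5, 66.0 and 64.5 CPM in sgCtr cells with CIT, against 75.0, 78.7 and 81.0 CPM without it. The log2 difference of Ect2 was −0.11 in sgNop16 cells (adjusted p = 0.0953), and in sgCtr cells it fell (−0.21 ± 0.05, adjusted p = 0.0015). Kif20a, Kif23 and Anln passed in neither.

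Condensin subunits moved in opposite directions. Smc2 and Smc4 are the ATPase pair at the core of condensin, which compacts chromosomes. Smc2 had 167, 173 and 172 CPM in sgNop16 cells with CIT, against 157, 153 and 163 CPM without it, and 176, 169 and 175 CPM in sgCtr cells with CIT, against 161, 153 and 165 CPM without it. Smc4 had 273, 274 and 282 CPM in sgNop16 cells with CIT, against 297, 290 and 299 CPM without it, and 291, 279 and 282 CPM in sgCtr cells with CIT, against 318, 310.1 and 316 CPM without it. Smc2 rose by 0.11 ± 0.04 in sgNop16 cells (adjusted p = 0.0149) and 0.12 ± 0.04 in sgCtr cells (adjusted p = 0.0119). Smc4 fell by 0.09 ± 0.03 in sgNop16 cells (adjusted p = 0.00921) and by 0.15 ± 0.03 in sgCtr cells (adjusted p = 0.000142). The Smc2 call was lost in sgNop16 cells without CIT library 2 or 3 or library 1 or 2 without CIT (adjusted p of up to 0.155), and in sgCtr cells without CIT library 1 or 3 or library 2 without CIT (up to 0.101). Top2a, the topoisomerase that untangles chromosomes, was called higher in sgNop16 cells (0.08 ± 0.02, adjusted p = 0.0104), a call lost without CIT library 3 or library 2 without CIT at adjusted p of up to 0.171. In sgCtr cells Top2a differed by −0.01 (adjusted p = 0.732). Ncapd2, Ncapg and Ncaph, the other condensin I subunits, and Mki67, the Ki-67 proliferation marker that coats mitotic chromosomes, passed in neither.

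**Figure D3:**
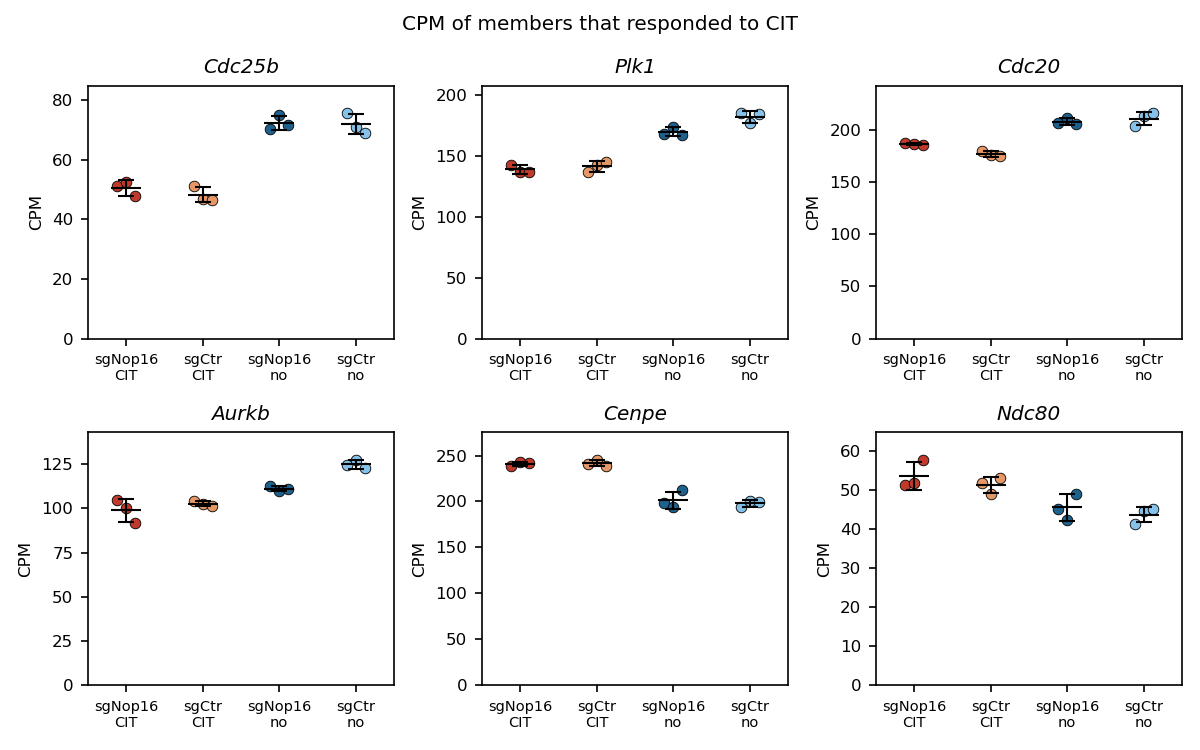
CPM of Cdc25b, Plk1, Cdc20, Aurkb, Cenpe and Ndc80 in the 12 libraries, with points for libraries and bars for the mean and SD of 3 libraries, each y axis starting at 0. Cdc25b lies between 46.6 and 52.7 CPM in the 6 CIT libraries and between 69.1 and 75.7 CPM in the 6 without CIT, whereas Cenpe is higher in every CIT library.

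The responses of sgNop16 and sgCtr cells, which share no library, ran largely in parallel. Of the 22 members called in each, 15 were called in both (68.2% of each list), all in the same direction, and 39 of the 46 had the same sign. The same counts were not made over all genes, so this likeness is not shown to be particular to the members. Across the 46 genes the log2 differences had a Pearson r of 0.907 and a Spearman rho of 0.877, given as a description because genes are not independent replicates. Of the 22 calls, 13 in sgNop16 cells and 17 in sgCtr cells passed under every alternative tried. Those that passed throughout in both guides include Cdc25b, Plk1, Cdc20, Ube2c, Aurkb, Bub1 and Cenpe.

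A member called in only one guide's response need not differ between guides, so the difference of the responses was tested directly. It was called for 1 of the 46 members, Bub3 (2.17% of the members, against 2.83% of all genes tested, 1.23% higher and 1.6% lower). Over all genes 207 were higher and 268 lower, and with library totals in place of TMM 136 were higher and 327 lower, with 0 members. The fall of Bub3 with CIT was smaller in sgNop16 cells by 0.17 ± 0.05 in log2 (adjusted p = 0.0367). That call was lost in 15 of the 20 alternatives, among them 11 of the 12 leave-one-library-out fits (all but the fit without sgNop16 CIT library 3), with adjusted p of up to 0.145. The next members by p were Bub1b (0.14, adjusted p = 0.16), Incenp (0.12, adjusted p = 0.169) and Top2a (0.09, adjusted p = 0.173). For Aurka, Ect2, Cenpf, Mad2l1, Nusap1 and Spc25, each called in one guide's response alone, the difference between responses had an adjusted p of 0.329 or more. Ccnb1, Kif4, Birc5, Cenpa and Kif2c were also called in a single guide's response, and the difference was not called for any of them.

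Few members differed between the guides, and by little. Without CIT, 6 of the 46 were called, 0 higher and 6 lower in sgNop16 cells (13% of the members, against 4.06% of all genes tested, 2.14% higher and 1.92% lower). The median log2 difference over the 46 was −0.041, against 0.00025 over all genes tested, and 36 of the 46 were below 0. With CIT, 3 were called, 1 higher and 2 lower (6.52%, against 7.12% of all genes tested, 4.05% higher and 3.07% lower), with a median of −0.0047 against 0.0082 over all genes tested. Scaling by library totals in place of TMM left 2 of the 6 calls without CIT, and moved the calls over all genes from 360 higher and 322 lower to 447 higher and 232 lower. With a filter of 5 CPM in 3 libraries, 7 of the 46 members and 817 of 10571 genes were called without CIT. With CIT 4 of the 46 and 1421 of 10571 were called. With that filter the members' share was above that of all genes without CIT and below it with CIT. Without CIT, leaving out sgNop16 library 1, 2 or 3 gave 1, 1 and 2 called members. All genes called were then 461 of 17446, 500 of 17517 and 487 of 17528. Leaving out sgCtr library 1, 2 or 3 gave 0, 3 and 3, with 479 of 17509, 480 of 17447 and 515 of 17447 genes. The members' share was below that of all genes without sgNop16 library 1 or 2 or sgCtr library 1. In the other leave-one-library-out fits it was above. The largest called difference in the main test was that of Pttg1 with CIT, at 1.16-fold.

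**Figure D4:**
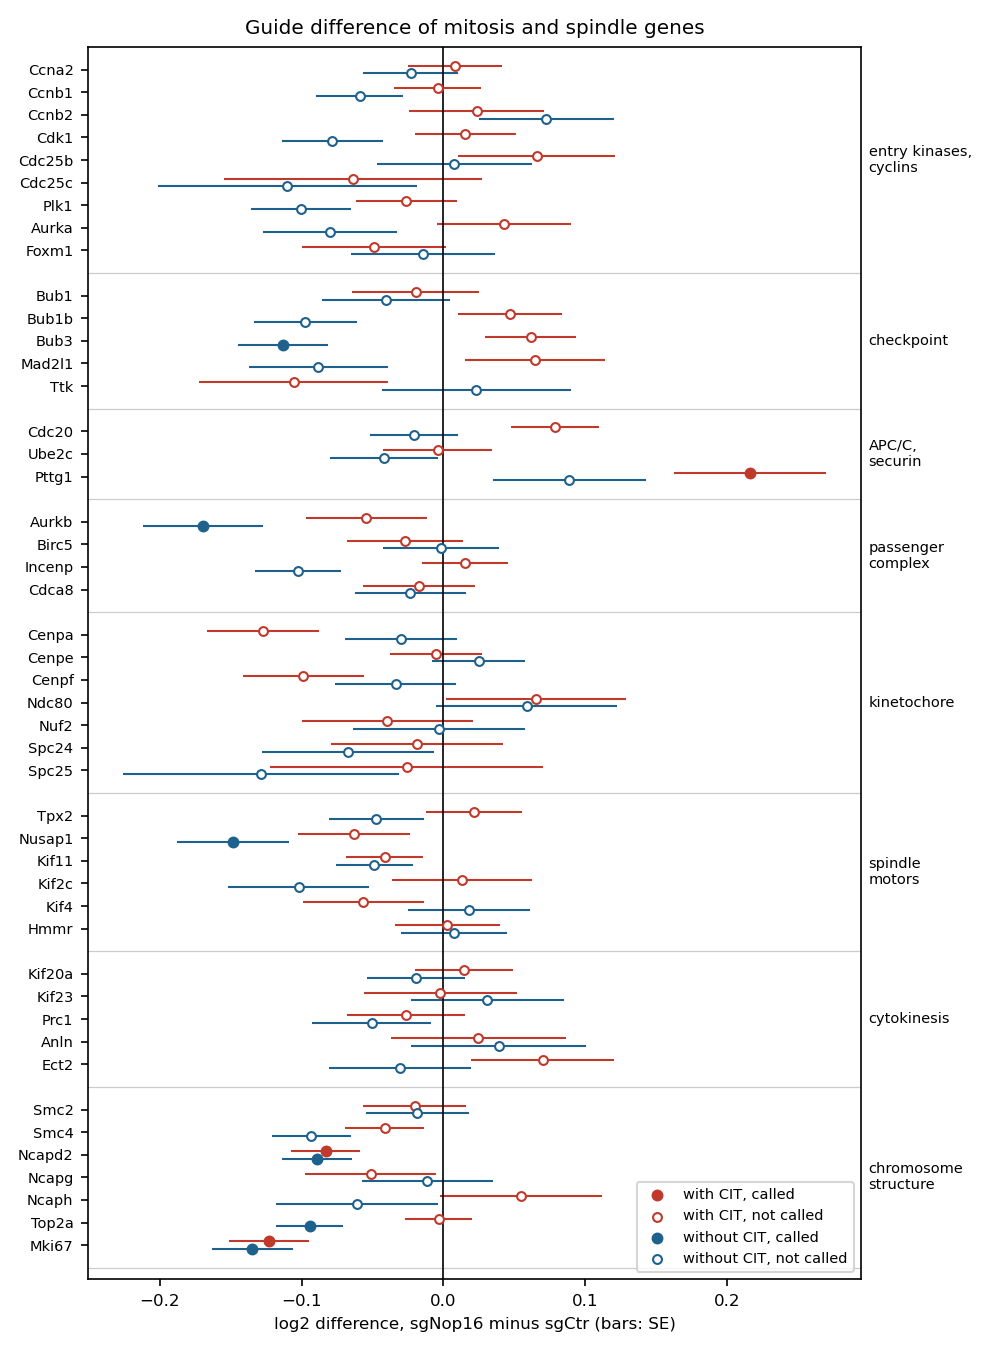
Log2 difference of each member between sgNop16 and sgCtr cells, with its standard error, with CIT (red) and without CIT (blue). Filled points passed adjusted p under 0.05, 1 above 0 and 2 below with CIT and 6 below 0 without CIT, and the called points lie between −0.17 and 0.22.

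Mki67 fell in sgNop16 cells whether or not CIT was given. It stood at 769, 761 and 745 CPM in sgNop16 cells with CIT, against 827, 821 and 831 CPM in sgCtr cells with CIT. Without CIT it stood at 754, 732 and 693 CPM in sgNop16 cells, against 817, 809.7 and 767 CPM in sgCtr cells. The groups did not overlap in either state. Its log2 difference was −0.12 ± 0.03 with CIT (adjusted p = 0.00863) and −0.13 ± 0.03 without it (adjusted p = 0.00645). The call with CIT was lost without sgNop16 library 3 (adjusted p = 0.0543), and the call without CIT was lost without sgNop16 library 3 or sgCtr library 1 (up to 0.0602).

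Ncapd2, the condensin subunit, was the other member called in both states. It had 385, 393 and 389 CPM in sgNop16 cells with CIT, against 416, 408 and 411 CPM in sgCtr cells with CIT, and 386, 393 and 400.4 CPM in sgNop16 cells without CIT, against 414, 419.5 and 422 CPM in sgCtr cells without CIT. All 6 sgNop16 libraries lay below all 6 sgCtr libraries. The differences were −0.08 ± 0.02 with CIT (adjusted p = 0.0419) and −0.09 ± 0.02 without it (adjusted p = 0.0404). The size held when a library was left out, at −0.0892 to −0.0759 with CIT and −0.1006 to −0.0728 without it, but the calls lay near the threshold. With CIT the call was lost in all 6 leave-one-library-out fits (adjusted p of up to 0.143), and without CIT in 5 of the 6, all but the fit without sgNop16 library 3 (up to 0.224). Across the 46 members, Pearson r between the guide differences in the 2 states was 0.314 and Spearman rho 0.201.

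Securin was the only member called higher with the Nop16 guide. Pttg1 stood at 47.7, 49.8 and 47.4 CPM in sgNop16 cells with CIT, against 42.7, 40.3 and 41.9 CPM in sgCtr cells with CIT, a log2 difference of 0.22 ± 0.05 (adjusted p = 0.0141). Without CIT it stood at 45.1, 42.9 and 44.2 CPM in sgNop16 cells, against 40.9, 41.2 and 42.1 CPM in sgCtr cells, where the groups also stood apart but the difference of 0.09 had adjusted p = 0.494. The call with CIT was lost without library 2 of either group (adjusted p of up to 0.0798).

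The remaining calls without CIT were Aurkb, Nusap1, Bub3 and Top2a, each lower in all 3 sgNop16 libraries than in any sgCtr library. Aurkb, with the library values given above, differed by −0.17 ± 0.04 (adjusted p = 0.0225), Nusap1 by −0.15 ± 0.04 (adjusted p = 0.0334) and Bub3 by −0.11 ± 0.03 (adjusted p = 0.0465). Top2a had 769, 740.4 and 764 CPM in sgNop16 cells, against 823, 806 and 798 CPM in sgCtr cells (−0.09 ± 0.02, adjusted p = 0.022). With CIT Top2a had 782, 804 and 815 CPM in sgNop16 cells, against 815, 793 and 797 CPM in sgCtr cells, overlapping groups. With a library left out the difference was −0.13 to −0.09 for Bub3, −0.18 to −0.15 for Aurkb, −0.18 to −0.13 for Nusap1 and −0.10 to −0.07 for Top2a. Calls were lost all the same. Bub3 lost its call in all 6 leave-one-library-out fits (adjusted p of up to 0.248), Aurkb in 5 (all but the fit without sgCtr library 3, up to 0.11), Nusap1 in 5 (all but the fit without sgCtr library 2, up to 0.146) and Top2a in 4 (without sgNop16 library 1 or 2 or sgCtr library 1 or 2, up to 0.158). The guide difference without CIT and the CIT response of sgCtr cells share the sgCtr libraries without CIT, so the falls of Aurkb and Bub3 in both are not independent of each other. Likewise, the guide difference without CIT and the CIT response of sgNop16 cells share the sgNop16 libraries without CIT. The calls of Nusap1 and Top2a, lower in the first and higher in the second, are thus not independent either.

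**Figure D5:**
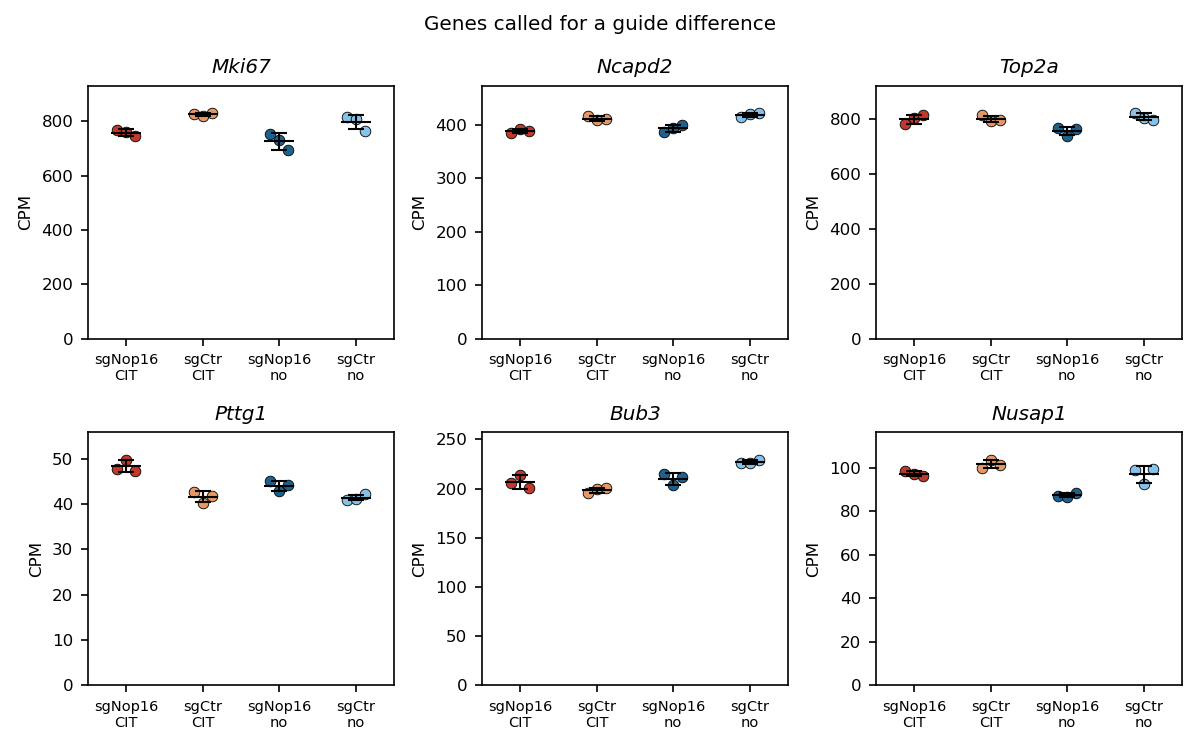
CPM of Mki67, Ncapd2, Top2a, Pttg1, Bub3 and Nusap1 in the 12 libraries, with points for libraries and bars for the mean and SD of 3 libraries, each y axis starting at 0. All 6 sgNop16 libraries lie below all 6 sgCtr libraries for Ncapd2, and the 3 sgNop16 libraries with CIT lie above all others for Pttg1.

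Replicate spread and the adjustment over all genes together set the size of difference that could be called. For CIT in sgCtr cells 7007 genes were called, where 7934 had unadjusted p under 0.05. For the guide without CIT 682 were called, where 2471 had unadjusted p under 0.05. A difference of the same size and standard error could thus pass in one comparison and not in another. The median coefficient of variation of the members between the 3 libraries of a group was 2.58% in sgNop16 cells with CIT, 3.12% in sgCtr cells with CIT, 3.19% in sgNop16 cells without CIT and 3.16% in sgCtr cells without CIT. The widest was Spc25 at 16.3% in sgCtr cells without CIT. Standard errors of the members' log2 differences between 2 groups ran from 0.024 to 0.097. For the difference between the CIT responses they ran from 0.033 to 0.137. Without CIT the guide difference of Ncapd2 passed at −0.09 ± 0.02, while that of Spc25 did not at −0.13 ± 0.10.

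The 40 members not called for the guide without CIT had differences from −0.13 for Spc25 to 0.09 for Pttg1, and the 43 not called with CIT had differences from −0.13 for Cenpa to 0.08 for Cdc20. Cenpa with CIT, at 123, 126 and 125 CPM in sgNop16 cells against 135, 142 and 131 CPM in sgCtr cells, came near the threshold (adjusted p = 0.0539). Cdk1 without CIT stood below its sgCtr libraries in all 3 sgNop16 libraries, as did Plk1, with differences of −0.08 (adjusted p = 0.294) and −0.10 (adjusted p = 0.133). With CIT Cdk1 differed by 0.02 and Plk1 by −0.03 between the guides.

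Other genes of the same machinery were counted beside the members. The 7 further lists of mitotic genes, 112 genes in all and none of them members, held 22 called higher and 11 lower with CIT in sgNop16 cells (29.5%, against 37.8% of all genes), and 17 higher and 25 lower in sgCtr cells (37.5%, against 41.7%). For the guide they held 3 higher and 0 lower with CIT (2.68%, against 7.12%), and 1 higher and 3 lower without it (3.57%, against 4.06%). None of these shares was above that of all genes. Among inner kinetochore genes, Hjurp, the chaperone that loads Cenpa, rose with CIT by 0.42 ± 0.05 in sgNop16 cells (adjusted p = 1.53e-07) and 0.41 ± 0.05 in sgCtr cells (adjusted p = 1.47e-07). Of 18 APC/C subunits and inhibitors, 0 were called higher and 4 lower with CIT in sgNop16 cells, and 2 higher and 8 lower in sgCtr cells (22.2% and 55.6%). Ube2s, which lengthens the ubiquitin chains that Ube2c begins, fell by 0.28 ± 0.03 in sgNop16 cells (adjusted p = 5.47e-07) and by 0.40 ± 0.03 in sgCtr cells (adjusted p = 1.32e-09). Its exons overlap those of the ribosomal protein gene Rpl28 on the opposite strand, which averaged 32117 counts against 11313 for Ube2s, so its counts are uncertain.

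Some of the regulators that act through the CHR had larger CIT responses than any member. Of 11 tested MuvB, DREAM and B-MYB regulators, 5 were called higher and 2 lower in each CIT response (63.6%, against 37.8% of all genes in sgNop16 cells and 41.7% in sgCtr cells). Mybl2, which encodes B-MYB, had 270.1, 277.5 and 271.6 CPM in sgNop16 cells with CIT, against 145, 153 and 147 CPM without it, and 242, 248 and 252 CPM in sgCtr cells with CIT, against 133, 137 and 139 CPM without it. It rose by 0.88 ± 0.03 in sgNop16 cells (adjusted p = 2.61e-16) and 0.86 ± 0.03 in sgCtr cells (adjusted p = 3.92e-16). Rbl2, which encodes p130, the pocket protein of the repressive DREAM complex, rose by 0.90 ± 0.08 in sgNop16 cells (adjusted p = 1.29e-09) and 0.93 ± 0.08 in sgCtr cells (adjusted p = 7.27e-10), so an activator and a repressor subunit rose together. E2f4, a DREAM subunit, fell by 0.20 ± 0.04 in sgNop16 cells and by 0.32 ± 0.04 in sgCtr cells. Mybl2 was also higher with the Nop16 guide, by 0.14 ± 0.03 with CIT (adjusted p = 0.00562) and by 0.12 ± 0.03 without it (adjusted p = 0.0329), the call without CIT being lost in 6 of 15 alternatives with adjusted p of up to 0.146.

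Genes of DNA replication and S phase, which act earlier in the cycle than mitosis, were mostly lower with CIT where called. Of 34 such genes, 4 were called higher and 17 lower in sgNop16 cells (61.8%, against 37.8% of all genes), and 0 higher and 17 lower in sgCtr cells (50%, against 41.7%), where their median log2 difference was −0.14 beside −0.01 for the mitosis genes. Ccne1, cyclin E, had 28.8, 27.4 and 32.3 CPM in sgNop16 cells with CIT, against 53.3, 51.2 and 55.5 CPM without it, and 31.0, 25.5 and 28.1 CPM in sgCtr cells with CIT, against 52.1, 53.0 and 53.2 CPM without it. It fell by 0.86 ± 0.07 in sgNop16 cells (adjusted p = 1.18e-09) and by 0.91 ± 0.07 in sgCtr cells (adjusted p = 3.79e-10). For the guide, 0 replication genes were called higher and 3 lower with CIT (8.82%, near the 7.12% of all genes), and 0 higher and 8 lower without it (23.5%, against 4.06%). Whether the replication and mitosis lists differ in their response was not tested.

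Several members share exon positions with a gene on the opposite strand in the GRCm38 annotation, and no source used here says whether counting took strand into account. The pairs include Kif20a with Cdc23, Cdc20 with Elovl1, Ncapg with Lcorl, Nusap1 with Oip5 and Cdc25b with Spef1. They also include Ccna2 with Exosc9, Cdca8 with 9930104L06Rik, Prc1 with Rccd1 and Kif4 with Pdzd11. Exosc9 averaged 2371.5 counts against 10571.1 for Ccna2. Outside the members, Rbl2 overlaps Aktip in the same way (309.3 counts for Aktip against 1479.6 for Rbl2). Counts of these genes could include reads from the partner.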

How the data were processed

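Total RNA of CH12F3-2A cells was sequenced in 12 libraries. Per the labels' protocols, 1 µg of total RNA per library went into a directional kit. The submitters' processing notes name HISAT2 2.2.1, StringTie 2.2.1 and GRCm39, with no roles. The authors deposited 1 table of estimated counts per gene, all whole numbers. Among low values a count of 4 occurs 8845 times, against 7532 for 3 and 4025 for 5, with no such excess at 8 or 12. The worth of a count in fragments is unknown, and dividing by 4 was kept as an alternative. No source used here says whether counting took strand into account. All 12 columns were used. P-values measure the spread between the libraries as labelled.

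Identifiers were paired with symbols from a GENCODE M21 (GRCm38) table, which matched 51948 of 56941. The 4993 unmatched hold at most 0.365% of counts. The main test was edgeR 4.0.16 in R 4.3.3 (TMM, filterByExpr, robust glmQLFit and glmQLFTest, a mean per group over all 12 libraries), with Benjamini-Hochberg adjustment over 16794 genes and calls at adjusted p under 0.05. CPM values scale counts to the same library total, with TMM factors. The test was checked on simulated data with a smaller dispersion than that estimated here. The changes put in were larger than any guide difference called among the members, so the check does not cover differences of that size. DESeq2 1.42.0, other scalings, filters, designs and leaving out each library were alternatives. The members, role groups, lists and rules were chosen with earlier results of these data known, so lists are described by counts with no test. Some of the cell type markers listed at the outset are not reported here and are not in the marker sums. Library values were printed for Cdk1, Ccnb1, Plk1, Aurkb, Top2a and the called members with the largest differences overall and per role, and other genes by size of difference within their list.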

Additional observations from a re-analysis of the deposited data

Results flagged for a closer look

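The CIT response differed between sgNop16 and sgCtr cells, by the test of the difference itself, for 1 member and 2 genes of the further mitotic lists. Bub3, the checkpoint adaptor, had a response 0.17 ± 0.05 higher in sgNop16 cells (log2, adjusted p = 0.0367), and the call was lost in 15 of 20 alternatives. Pmf1, an outer kinetochore subunit, averaged 75.8 ± 0.91 CPM in sgNop16 cells and 71.6 ± 2.17 CPM in sgCtr cells with CIT, and 91.3 ± 2.60 CPM in sgNop16 cells and 100 ± 0.67 CPM in sgCtr cells without it (SD, n = 3 each). Its fall with CIT was 0.21 ± 0.06 smaller in sgNop16 cells (adjusted p = 0.0488), a call lost in 19 of 20 alternatives with adjusted p of up to 0.153.

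Psrc1, which encodes a spindle protein that binds microtubules, had 48.7, 49.2 and 49.4 CPM in sgNop16 cells with CIT, against 44.7, 46.3 and 45.6 CPM in sgCtr cells with CIT. Without CIT it had 30.7, 29.1 and 28.8 CPM in sgNop16 cells, against 39.1, 37.3 and 38.5 CPM in sgCtr cells. It rose with CIT by 0.73 ± 0.06 in sgNop16 cells and by 0.25 ± 0.06 in sgCtr cells, a difference of 0.48 ± 0.08 (adjusted p = 0.000904) that passed under all 20 alternatives, with adjusted p of up to 0.00413. Without CIT it was lower in sgNop16 cells by 0.38 ± 0.06 (adjusted p = 0.000192), in libraries that the difference between responses also uses, so these results are not independent.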

How the results depend on the processing

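Of the members called, 13 of 22 in the CIT response of sgNop16 cells and 17 of 22 in that of sgCtr cells passed under every alternative, against 0 of 3 for the guide with CIT and 0 of 6 without it. Leaving out a library gave 16 to 20 members in sgNop16 cells and 19 to 21 in sgCtr cells for CIT, 1 to 3 for the guide with CIT, 0 to 3 without it and 0 to 1 for the difference between CIT responses. Over all genes it gave 777 to 899 for the guide with CIT, against 1195 in the main test, and 461 to 515 without CIT, against 682. It gave 5707 to 5804 for CIT in sgNop16 cells, against 6343, and 6436 to 6527 in sgCtr cells, against 7007. For the difference between responses it gave 305 to 389, against 475. The guide without CIT left 2 members with library totals (679 of 16794 genes) and 2 with only the groups compared (547 of 15377 genes). The difference between responses left 0 members with library totals, with no filter, with the replicate block and without the robust option (chosen after seeing the data). In that order these settings called 463, 408, 407 and 358 genes for the difference, and DESeq2 called 767. The sign turned for uncalled values. For the guide with CIT these were Top2a (0.0121 without sgNop16 replicate 1, 0.0080 without sgCtr replicate 1) and Ccnb1 (0.0136 without sgCtr replicate 1). Leaving out a library gave −0.0176 to 0.0121 for Top2a and −0.0137 to 0.0136 for Ccnb1. For CIT in sgCtr cells it was Top2a (0.0217 with library totals, 0.0087 with a 5 CPM filter). The cause was not tested. A fit of only the groups compared was not run for the difference between responses, which uses all 4 groups.

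Same-numbered libraries did not deviate together (correlations −0.045 to 0.023), which does not settle whether they were handled together. The main fit used no replicate block. With the replicate block, 2 members were called for the guide with CIT, 4 without it, 22 for CIT in sgNop16 cells, 21 in sgCtr cells and 0 for the difference. In the same order, 1117, 617, 6247, 6932 and 407 of all 16794 genes were called. The members' standard errors limit what could be called. They reached 0.097 in log2 between 2 groups and 0.137 for the difference between responses.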

Other observations

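Cohesin, which holds sister chromatids together, and its loader went different ways with CIT in sgCtr cells. Of 13 cohesin and condensin II genes, 0 were called higher and 1 lower in sgNop16 cells (7.69%, against 37.8% of all genes), and 2 higher and 3 lower in sgCtr cells (38.5%, against 41.7%). Rad21, the cohesin subunit cut at anaphase, fell by 0.14 ± 0.02 in sgNop16 cells (adjusted p = 1.99e-05) and by 0.17 ± 0.02 in sgCtr cells (adjusted p = 2.03e-06). Smc3, a cohesin ATPase, fell by 0.22 ± 0.03 in sgCtr cells (adjusted p = 1.11e-05), and Nipbl, which loads cohesin, rose there by 0.20 ± 0.03 (adjusted p = 2.48e-05).

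Among 16 further mitotic kinases, CDK partners and brakes, 3 were called higher and 1 lower with CIT in sgNop16 cells (25%, against 37.8% of all genes), and 2 higher and 3 lower in sgCtr cells (31.2%, against 41.7%). Cdc25a, the phosphatase that acts earlier in the cycle than Cdc25b, fell by 0.23 ± 0.04 in sgNop16 cells (adjusted p = 1.55e-05) and by 0.27 ± 0.04 in sgCtr cells (adjusted p = 1.8e-06). Melk, a mitotic kinase, rose by 0.33 ± 0.04 in sgNop16 cells (adjusted p = 1.39e-06) and by 0.22 ± 0.04 in sgCtr cells (adjusted p = 0.000278).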
